A study of Mus musculus with 24 samples.

Results

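The genes described here are the 9 genes of the type 2 and allergic axis that were listed by name: Tslp, the IL-4 and IL-13 receptor genes Il4ra, Il13ra1 and Il13ra2, the chemokine genes Ccl11, Ccl17, Ccl22 and Ccl24, and the matrix gene Postn. They were 9 of 54087 gene symbols in an RNA-Seq count table of dorsal skin from mouse embryos at E18.5, and the rule that names them uses no measured value, though results of these data were known when they were listed. The mice carried a CRISPR/Cas9 deletion of the tandem desmoglein 1 cluster (Dsg1c, Dsg1a and Dsg1b), made in C57BL/6J zygotes and bred from a single founder. WT embryos had both copies of the cluster, HET embryos had 1 and KO embryos (Dsg1-/-) had none, from conception and in every cell. Both sexes were used. The question is whether embryonic skin without Dsg1, a desmosomal cadherin whose loss in people causes a syndrome with dermatitis and multiple allergies, differs in the RNA of these genes.

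Type 2 immunity is the arm of the immune system that acts in allergy and against worms. In skin, stressed keratinocytes release TSLP, which acts on dendritic cells and lymphoid cells, and lymphoid cells and others supply IL-4 and IL-13. Both cytokines signal through the IL-4 receptor chain and STAT6, and their targets include chemokines that draw in eosinophils and T cells, and periostin, a matrix protein of fibroblasts.

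A total of 24 libraries (8 per genotype, 8.98 to 20.96 M counts each; M, mega) were summed by the number in their title to 15 columns, 5 per genotype, of 15.3 to 33.7 M counts. These columns are the replicates, and no label says that each is a separate embryo. The targeted genes followed the labels. The sum of Dsg1a, Dsg1b and Dsg1c was 806 ± 112 CPM (read counts scaled to a common library size with TMM factors; SD, n = 5) in WT, 422 ± 51.5 in HET and 0.548 ± 0.343 in KO, or 0.068% of WT (two-sided exact permutation test, p = 0.00794 for HET and for KO against WT, the smallest that 5 against 5 allows). The 2 libraries of WT replicate 2 did not look like 1 animal: one had 574.4 CPM of the female transcript Xist and the other 0.275, and over genes their counts gave a chi-square per degree of freedom near 15.6, where the other 8 pairs gave 1.59 to 1.86. The calls were therefore also counted with them as separate columns, while the main fit and the means below keep them as 1 column. KO replicate 4 (1 library of 20.96 M counts) had the lowest level of summed fibroblast markers (Col1a1, Col1a2, Col3a1, Dcn, Lum and Pdgfra), 14688 CPM against 19892 to 36603 in the other 14 columns. Keratinocyte markers (Krt5, Krt14, Krt1, Krt10, Trp63 and Dsp) summed to between 54067 and 95911 CPM in the 15 columns, so each held keratinocyte RNA. Skeletal muscle markers (Acta1, Ckm, Myh3, Tnnt3, Myh8 and Ttn) summed to between 7470.3 and 17552.5 CPM, so muscle RNA was present too.

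The sequence of the start of 2 of the genes is shown because STAT6 acts through such DNA and because the largest fitted difference below belongs to Il13ra2. Windows run from 250 bases before to 50 bases after the RefSeq start (GRCm38.p6), and capitals mark motif matches. The Ccl17 window lies at chr8:94810203-94810502 on the plus strand, with TTCNNNNGAA (the STAT6 motif) and then TTCNNNGAA (the general STAT motif) in capitals. The Il13ra2 window lies at chrX:147429143-147429442 on the minus strand, with TATAAA in capitals, a motif that was added after the windows were seen.
Ccl17: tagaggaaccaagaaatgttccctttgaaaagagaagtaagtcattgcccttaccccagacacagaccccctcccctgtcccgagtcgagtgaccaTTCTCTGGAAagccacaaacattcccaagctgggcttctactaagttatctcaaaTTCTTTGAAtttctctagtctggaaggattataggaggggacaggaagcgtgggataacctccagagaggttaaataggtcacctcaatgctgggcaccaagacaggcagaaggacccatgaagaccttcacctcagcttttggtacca
Il13ra2: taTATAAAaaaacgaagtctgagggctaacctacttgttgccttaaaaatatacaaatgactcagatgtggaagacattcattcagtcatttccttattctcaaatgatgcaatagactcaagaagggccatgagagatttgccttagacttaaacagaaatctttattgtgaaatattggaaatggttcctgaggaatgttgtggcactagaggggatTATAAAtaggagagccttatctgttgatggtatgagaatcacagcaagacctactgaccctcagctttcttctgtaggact

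Tslp was left out of the motif search by choice, and RefSeq windows were matched for 6 of the 9 genes (Il4ra, Il13ra1, Il13ra2, Ccl17, Ccl22 and Postn). Both STAT motifs read the same on either strand and were found in Ccl17 alone of these 6, the STAT6 motif starting at -154 and the other at -99, where +1 is the start of the gene. The STAT6 motif was present in 7.0% of 32851 windows of the same length and the general one in 8.3%. TATAAA, searched on both strands, started at -31 and -248 in Il13ra2 and at -26 in 1 of the 2 Postn windows, and 13.6% of all windows held it. The GC content ranged from 37.7% in Il13ra2 to 71.0% in Il13ra1, with a median of 52.7% over all windows. These matches describe the letters only.

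The genes covered a wide range of levels. Per kilobase of exon (GENCODE vM21), WT skin held 254 ± 22.4 CPM of Postn, 27.8 ± 1.73 of Il13ra1, 6.85 ± 0.584 of Il4ra, 2.92 ± 0.518 of Ccl11 and 1.47 ± 0.389 of Ccl24 (SD, n = 5). Tslp (0.352 ± 0.0811), Il13ra2 (0.141 ± 0.0518), Ccl17 (0.121 ± 0.0834) and Ccl22 (0.00816 ± 0.0182) came last on this scale. The WT columns of neighbours in this order did not overlap from Postn down to Tslp, whereas those of Tslp and Il13ra2, of Il13ra2 and Ccl17, and of Ccl17 and Ccl22 overlapped. Of the 9 genes, 7 had enough counts to be tested. Ccl17 (26 counts over the 15 columns) and Ccl22 (19 counts) did not.

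No gene of the 9 was called in any comparison (edgeR's quasi-likelihood test over 17094 genes, called where the adjusted p was at most 0.1 and the log2 fold change at least 1 in size). In KO versus WT, 0 of the 7 tested genes were called, where 0.322% of all genes were, and their adjusted p-values ran from 0.205 to 0.849. At an unadjusted p under 0.05, 3 of 7 passed (Il13ra1, Il13ra2 and Ccl11, all fitted higher in KO), against 19.3% of all genes. DESeq2 and limma-voom also called 0 of them. None of the 7 had KO and WT columns without overlap, which 3.37% of all genes had. In HET versus WT 0 were called, against 0.0% of all genes, and 1 (Ccl11) had an unadjusted p under 0.05, against 1.58%. In KO versus HET 0 were called (0.181% of all genes) and 0 had an unadjusted p under 0.05 (16.0% of all genes). The median log2 fold change of the 7 genes was 0.12 in KO versus WT (-0.01 over all genes), 0.13 in HET versus WT (0.0) and 0.0 in KO versus HET (0.0). In whole skin, fewer cells of a type and less RNA per cell cannot be told apart.

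**Figure D1:**
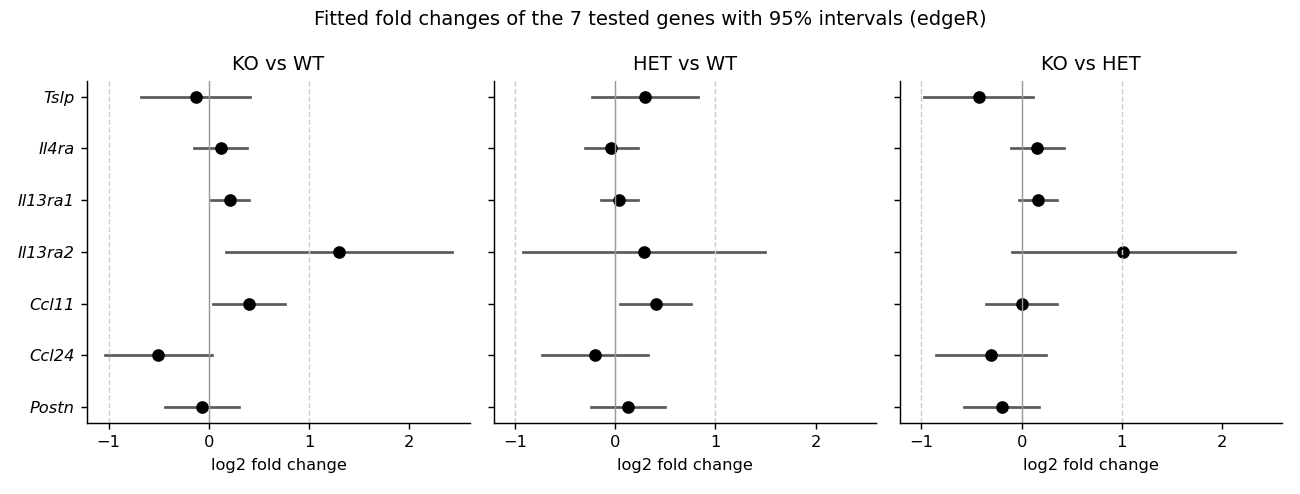
Log2 fold changes of the 7 tested genes (points) with their 95% intervals (lines) in KO versus WT, HET versus WT and KO versus HET, from edgeR; dashed lines mark a log2 fold change of 1 in either direction. Il13ra2 has the largest fitted difference (1.30 in KO versus WT) and a wide interval, and the intervals of Tslp, Il4ra, Il13ra1, Ccl11 and Postn lie within the dashed lines in each panel.

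Tslp encodes the epithelial cytokine at the head of the axis. Its level was 0.534, 0.493, 0.569, 0.291 and 0.453 CPM in WT replicates 1 to 5, 0.553, 0.558, 0.773, 0.325 and 0.622 CPM in HET, and 0.541, 0.443, 0.426, 0.360 and 0.333 CPM in KO. The 3 genotypes overlapped, and 1 of 5 KO columns was above the WT median. The log2 fold change was -0.13 ± 0.26 (SE) in KO versus WT, a fold of 0.913 with a 95% interval of 0.625 to 1.33 (adjusted p = 0.834, edgeR). HET versus WT gave 0.30 ± 0.25 (adjusted p = 1.0) and KO versus HET gave -0.43 ± 0.25 (adjusted p = 0.412). Only 188 counts of Tslp were read in all 15 columns.

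Il4ra encodes the receptor chain shared by IL-4 and IL-13. Levels were 36.3, 43.1, 42.5, 45 and 38.8 CPM in WT replicates 1 to 5, 44.6, 41.8, 42.9, 34.2 and 36.9 CPM in HET, and 47.1, 42.5, 34, 59.7 and 40.0 CPM in KO. KO replicate 4 was the highest of the 15 columns, and KO replicate 3 the lowest. KO versus WT gave a log2 fold change of 0.12 ± 0.12 (fold interval 0.904 to 1.30, adjusted p = 0.615, edgeR) and -0.01 without KO replicate 4. HET and WT differed by -0.04 ± 0.12 (adjusted p = 1.0).

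Il13ra1 encodes the chain that binds IL-13 and pairs with the IL-4 receptor chain. Levels were 98.8, 100, 102, 101.2 and 114.6 CPM in WT, 102.1, 117.9, 93.7, 122.4 and 96.6 CPM in HET, and 117.3, 133.8, 105.3, 114.7 and 125.2 CPM in KO. Of the 5 KO columns, 4 lay above the highest WT column (KO replicate 4 only just), WT replicate 5, which itself stood apart from the other 4. The fitted log2 fold change in KO versus WT was 0.21 ± 0.09, a fold of 1.15 with a 95% interval of 1.01 to 1.32 (adjusted p = 0.224, edgeR). It ranged from 0.16 to 0.25 over 26 alternative fits, with adjusted p-values from 0.142 to 0.655. HET did not pass against WT (0.04 ± 0.09, adjusted p = 1.0), nor KO against HET (0.16 ± 0.09, adjusted p = 0.378). Il13ra1 and Il13ra2 are on chromosome X, and the genotypes differed in their columns by sex: without WT replicate 2, 3 WT columns carried Xist and 1 carried Y transcripts, against 2 and 3 in HET and in KO. The part of sex in these values was not tested.

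Il13ra2 encodes a second IL-13 receptor, which binds IL-13 tightly and is known as a decoy. Levels were 0.291, 0.522, 0.221, 0.327 and 0.252 CPM in WT, 0.651, 0.335, 0.368, 0.325 and 0.287 CPM in HET, and 0.481, 0.369, 0.511, 2.57 and 0.333 CPM in KO. A single KO column set the mean. KO replicate 4 held 50 counts and the other 4 KO columns 45 counts together, at 0.423 ± 0.0857 CPM (SD, n = 4), against 0.323 ± 0.118 CPM in WT (n = 5). With all columns, the log2 fold change in KO versus WT was 1.30 ± 0.53, a fold of 2.47 with a 95% interval of 1.13 to 5.39 (adjusted p = 0.205, edgeR), and 0.37 (adjusted p = 0.640) without KO replicate 4. With the fibroblast marker score as a covariate it was 0.54 (adjusted p = 0.598). KO versus HET gave 1.01 ± 0.53 (adjusted p = 0.352), 0.08 (adjusted p = 0.949) without that column and 0.31 (adjusted p = 0.771) with the covariate. HET and WT differed by 0.29 ± 0.57 (adjusted p = 1.0).

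**Figure D2:**
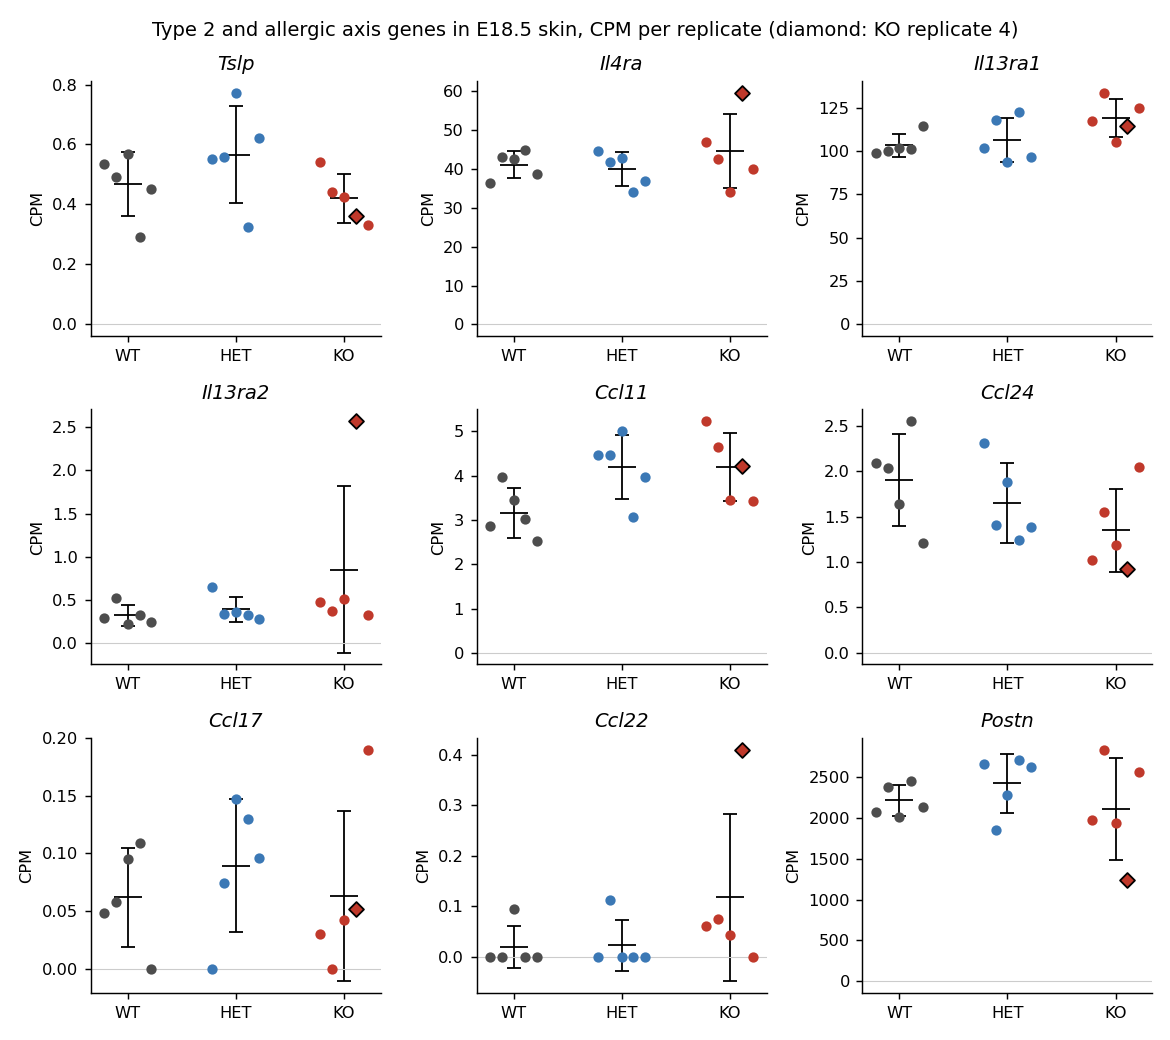
CPM of each of the 9 genes in the 5 replicates of WT, HET and KO (points; linear axes that differ between panels), with the mean and SD (n = 5); the diamond is KO replicate 4. KO replicate 4 is the highest column for Il4ra (59.7 CPM), Il13ra2 (2.57 CPM) and Ccl22 (0.411 CPM) and the lowest for Ccl24 (0.925 CPM) and Postn (1233 CPM).

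Ccl11 and Ccl24 encode eotaxins, which attract eosinophils through the receptor CCR3. Ccl11 was at 2.86, 3.97, 3.45, 3.02 and 2.52 CPM in WT, 4.46, 4.46, 5, 3.06 and 3.97 CPM in HET, and 5.23, 4.65, 3.45, 4.21 and 3.43 CPM in KO. The means of HET (4.19 ± 0.731, SD, n = 5) and KO (4.19 ± 0.778) were alike and above that of WT (3.16 ± 0.561), with overlapping columns. The log2 fold change was 0.40 ± 0.17 in KO versus WT (fold 1.32, interval 1.03 to 1.70, adjusted p = 0.214, edgeR) and 0.41 ± 0.17 in HET versus WT (adjusted p = 1.0). These comparisons share the WT columns. KO and HET differed by 0.00 ± 0.17, with a fold interval of 0.780 to 1.28.

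Ccl24 fitted lower in KO without passing the test. Levels were 2.09, 2.03, 1.64, 2.55 and 1.21 CPM in WT, 2.31, 1.41, 1.88, 1.24 and 1.39 CPM in HET, and 1.02, 1.55, 1.19, 0.925 and 2.05 CPM in KO. Of the KO columns, 3 lay below the lowest WT column, and KO replicate 5 lay among the higher WT columns. The log2 fold change was -0.51 ± 0.25 in KO versus WT (fold 0.704, interval 0.485 to 1.02, adjusted p = 0.283, edgeR), and -0.41 without KO replicate 4. The fold in HET versus WT was 0.871 (0.603 to 1.26). Ccl11 and Ccl24 thus had fitted fold changes of opposite sign in KO versus WT, neither of which passed. Macrophage markers (8 of 8 detected), which are given because macrophages are a known source of Ccl24, summed to 202.6 to 316.9 CPM in WT and 186.2 to 351.2 CPM in KO, and their part in the Ccl24 values was not tested.

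Ccl17 and Ccl22 encode the ligands of CCR4, the receptor of type 2 and skin-homing T cells, and are neighbours on chromosome 8. Ccl17 had 1, 2, 3, 3 and 0 counts in WT, 0, 2, 4, 2 and 2 in HET and 1, 0, 1, 1 and 4 in KO. The KO to WT ratio of 7 against 9 counts was 0.839 (95% counting interval 0.265 to 2.53), and the columns did not separate (exact permutation test on log2(CPM + 0.1), p = 0.873). Ccl22 had 0, 0, 3, 0 and 0 counts in WT, 0, 3, 0, 0 and 0 in HET and 2, 2, 1, 8 and 0 in KO. Counts were present in 4 of 5 KO columns and in 1 of 5 columns in WT and in HET, but 8 of the 13 KO counts came from KO replicate 4. The ratio of 13 against 3 counts was 4.67 with a counting interval of 1.28 to 25.6, which leaves out the spread between columns, and the exact permutation test over columns gave p = 0.167 (the smallest possible is 0.00794). Intervals of this kind cover counting error only. Of the dendritic and Langerhans cell markers, the Langerhans gene Cd207 had 0, 2 and 1 counts in WT, HET and KO, and the summed list lay between 15.6 and 33.8 CPM in all 15 columns.

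Postn, the gene of periostin, was the most abundant of the 9. Levels were 2076, 2382, 2009, 2453 and 2137 CPM in WT, 2662, 1849, 2278, 2703 and 2618 CPM in HET, and 1978, 2835, 1931, 1233 and 2559 CPM in KO. The KO columns were spread around WT: 3 lay below the lowest WT column and 2 above the highest. Their coefficient of variation was 29.5%, against 8.82% in WT and 14.9% in HET. The log2 fold change was -0.07 ± 0.18 in KO versus WT (fold interval 0.736 to 1.23, adjusted p = 0.849, edgeR), 0.07 without KO replicate 4 and 0.12 with the fibroblast marker score as a covariate. HET and WT differed by 0.13 ± 0.18 and KO and HET by -0.20 ± 0.18. Fibroblast markers summed to 22424 to 36603 CPM in WT and 14688 to 29515 in KO, and both the marker sum and Postn were lowest in KO replicate 4. The covariate comes from the same libraries and is also lowest in KO replicate 4, so it cannot separate fibroblast content from that column. Whether fibroblast content sets the Postn values was not tested.

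**Figure D3:**
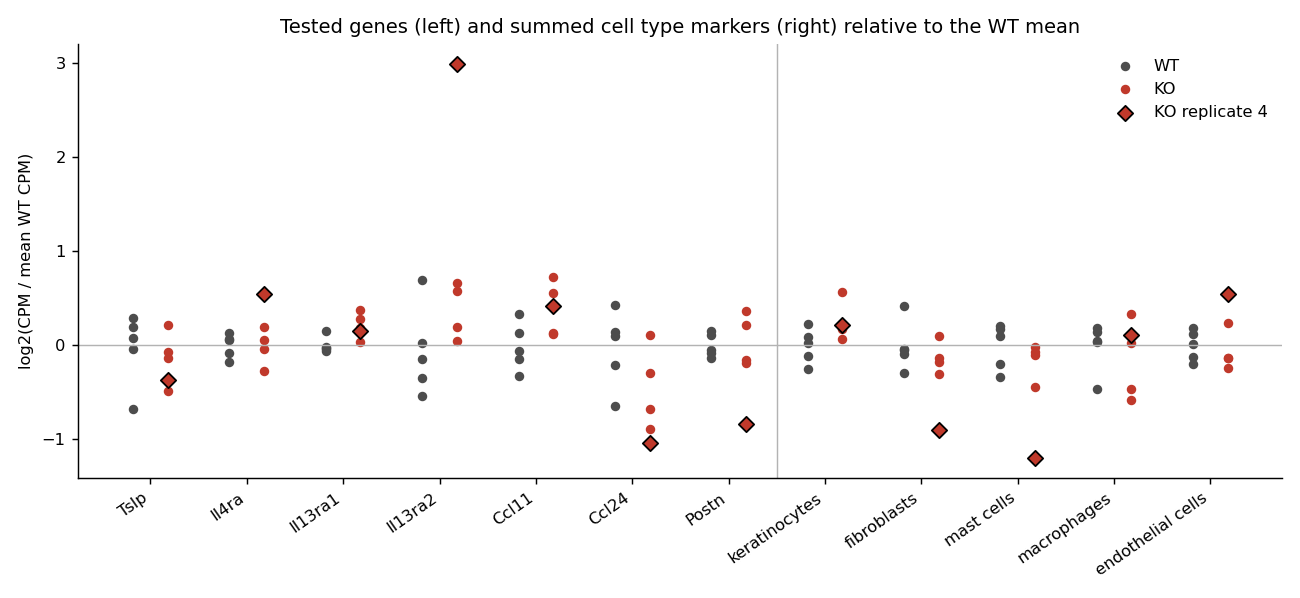
Levels of the 7 tested genes (left of the line) and summed markers of 5 cell types (right) in each WT and KO column, as log2 of the ratio to the mean WT CPM; diamonds are KO replicate 4. In that column Il13ra2 is far above and Postn, fibroblast and mast cell markers are below every other column drawn.

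KO replicate 4 was thus the highest or lowest of the 15 columns for 5 of the 9 genes, by a wide gap for Il13ra2 and Ccl22 and by a narrow one for Ccl24 (0.925 CPM, against 1.02 in KO replicate 1). Its fibroblast and mast cell markers were the lowest of the 15 columns (mast cells 833 CPM, against 1176 to 2357 in the others) and its endothelial markers the highest (456 CPM, against 224 to 376). Its keratinocyte sum (74731 CPM) was the fourth highest, within the range of the other KO columns, and its macrophage sum (301 CPM) was also within that range. Tslp (0.360 CPM), Il13ra1 (114.7 CPM) and Ccl11 (4.21 CPM) in this column lay within the range of the other KO columns. With the fibroblast score as a covariate, KO versus WT was nearer to 0 for Il13ra2 (0.54), Il4ra (0.04) and Ccl24 (-0.35) and of the other sign for Postn (0.12). The score is itself lowest in KO replicate 4, and the part of any cell type in these values was not tested.

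Correlations over the 15 columns describe which genes varied alike. They mix genotypes and depend on shared libraries and depth. The genes most like Il4ra in log2 CPM were Tnfrsf23 (r = 0.931), Rnf213 (0.922) and Slfn4 (0.917), and those most like Il13ra1 were Klk10 (0.913), Herc4 (0.910) and Macc1 (0.904). For Il13ra2 the genes were Hsd11b1 (0.929), Krt18 (0.923) and Dsc2 (0.919), but these fell to 0.316, 0.195 and 0.305 without KO replicate 4. Postn varied most like Glt8d2 (0.895), Fgf7 (0.887) and Pcdh20 (0.870), and without that column these were 0.743, 0.701 and 0.736. Ccl11 was most like Sfrp1 (0.900), Lep (0.823) and RP23-31I2.4 (0.807), Ccl24 like Tmem194b (0.845), Cd86 (0.836) and Zfp13 (0.834), and Tslp like Prr5 (0.845), Papss2 (0.843) and a gene model known by a clone name (0.830). Among the 21 pairs of the 7 tested genes, the highest r was between Il4ra and Il13ra2, 0.73 over 15 columns and 0.28 without KO replicate 4.

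The rest of the pathway was read from 6 lists with 70 genes in all, of which 69 were in the table and 59 were tested. None was called in KO versus WT (0.322% of all genes tested were), HET versus WT (0.0%) or KO versus HET (0.181%). In KO versus WT, 8 of the 59 had an unadjusted p under 0.05, against 19.3% of all genes: 4 fitted higher (Il33, Jak1, Stat3 and Ccl2) and 4 lower (Crlf2, Il31ra, Ch25h and Lox) in KO than in WT, and the smallest adjusted p was 0.168 (edgeR). In HET versus WT 3 of the 59 had an unadjusted p under 0.05 (1.58% of all genes), and in KO versus HET 11 did (16.0%).

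Most type 2 cytokines were at the edge of detection. Over 5 columns each in WT, HET and KO, Il5 had 0, 0 and 4 counts, Il9 had 1, 1 and 0, and Il31 had 0, 1 and 1; these 3, like Ccr3 and Cd207, are named for counts seen in the data. Il13 had 41, 46 and 21 counts and Il25 had 27, 14 and 15, also too few to be tested. Il4 was tested, at 1.67 ± 0.269 CPM in WT, 1.93 ± 0.281 in HET and 1.30 ± 0.328 in KO (SD, n = 5). Its KO columns did not overlap the HET columns, yet its adjusted p was 0.201 (edgeR), and KO versus WT gave a log2 fold change of -0.36 ± 0.20 (adjusted p = 0.321). The share of all genes without overlap was not computed for KO versus HET. Il33, which encodes an alarmin of epithelial and stromal cells, was at 3.35 ± 1.23 CPM in WT and 5.16 ± 0.971 in KO, a log2 fold change of 0.61 ± 0.23 (adjusted p = 0.173).

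Of 11 receptor genes for these cytokines other than the members, 0 were called, with a median log2 fold change of -0.28 in KO versus WT (4 positive, 7 negative). Crlf2, the specific chain of the TSLP receptor, was at 12.5 ± 1.05 CPM in WT, 11.1 ± 2.37 in HET and 10 ± 0.875 in KO (log2 fold change -0.32 ± 0.13 in KO versus WT, adjusted p = 0.213, edgeR). Il31ra, a chain of the receptor of the itch cytokine IL-31, fitted lower in KO by -0.71 ± 0.28 (adjusted p = 0.195). Both were named after their values were seen. Il1rl1, the IL-33 receptor, was at 36.9 ± 9.60 CPM in WT and 35.9 ± 9.35 in KO (log2 fold change -0.04 ± 0.25). Mast cells carry this receptor, and their 8 markers summed to 1517 to 2200 CPM in WT and 833 to 1889 CPM in KO.

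Of 6 receptor genes of the 4 chemokines, 5 were tested and 0 were called. Ccr3, the eotaxin receptor, had 11, 8 and 11 counts in WT, HET and KO. Ccr4 was at 8.77 ± 3.26 CPM in WT and 8.97 ± 1.65 in KO (log2 fold change 0.03 ± 0.21, fold interval 0.750 to 1.39). Eosinophil markers summed to 1.67 to 5.02 CPM over the 15 columns, and those of T cells and innate lymphoid cells to 4.50 to 10.4 CPM.

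Below the IL-4 receptor, 0 of 13 JAK and STAT pathway genes were called, with 8 positive and 5 negative fold changes in KO versus WT. Stat6, the main transducer of IL-4 and IL-13, was at 119.3 ± 21.9 CPM in WT, 112.0 ± 3.62 in HET and 126.3 ± 15 in KO (log2 fold change 0.08 ± 0.11 in KO versus WT, fold interval 0.904 to 1.24, adjusted p = 0.688, edgeR). The kinase gene Jak1 gave 0.21 ± 0.09 (adjusted p = 0.232) and Stat3 gave 0.23 ± 0.11 (adjusted p = 0.254). WT replicate 4 stood apart from the other WT columns for Jak1 and Stat6. Over 26 alternative fits (edgeR, DESeq2 or limma-voom), Jak1 ranged from 0.15 to 0.28, with adjusted p-values from 0.0826 to 0.623. Stat3 ranged from 0.15 to 0.30 (adjusted p 0.107 to 0.72) and Stat6 from 0.01 to 0.20 (0.16 to 0.981).

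**Figure D4:**
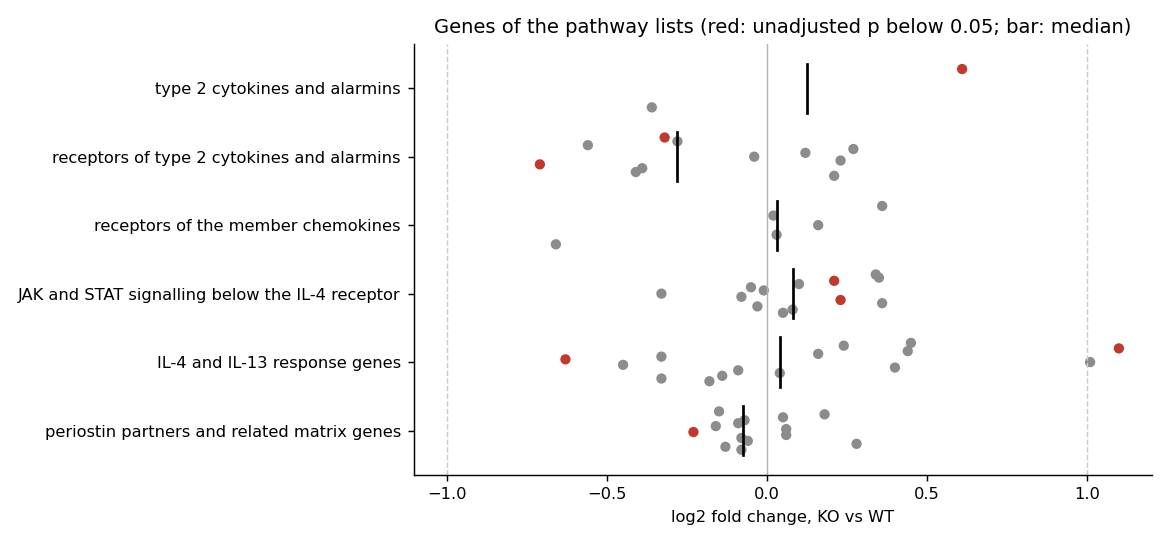
Log2 fold changes in KO versus WT of the tested genes in the 6 pathway lists (points; red where the unadjusted p is under 0.05) with the median of each list (black bar); dashed lines mark a log2 fold change of 1 in either direction. The list medians lie between -0.28 and 0.13, and none of these genes was called.

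Of 20 listed genes that respond to IL-4 and IL-13, 19 were in the table and 15 were tested. Of these, 8 had positive and 7 negative fold changes in KO versus WT, with a median of 0.04, and 0 were called. Mrc1, a macrophage receptor gene, was at 129.5 ± 23.8 CPM in WT and 117.3 ± 29.3 in KO (log2 fold change -0.14 ± 0.17). Ccl2, a monocyte chemokine gene named after its values were seen, had the largest fitted difference of the list, 1.10 ± 0.49 (adjusted p = 0.237, edgeR). KO replicate 4 was at 15.3 CPM for Ccl2, and without it the log2 fold change was 0.28 (adjusted p = 0.699). Ch25h, also named after its values were seen, encodes cholesterol 25-hydroxylase. It was at 1.39 ± 0.333 CPM in WT, 0.749 ± 0.198 in HET and 0.908 ± 0.214 in KO, without overlap between WT and either other genotype. The log2 fold change was -0.63 ± 0.23 in KO versus WT (adjusted p = 0.168, edgeR) and -0.88 ± 0.23 in HET versus WT (adjusted p = 1.0, edgeR). In KO versus WT, 3.37% of all genes tested had no overlap, and for HET versus WT this share was not computed.

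Among 14 periostin partners and related matrix genes, 0 were called and the median log2 fold change in KO versus WT was -0.07, with a range of -0.23 to 0.28. Lox, which encodes lysyl oxidase, a collagen cross-linking enzyme, was at 298.8 ± 52.8 CPM in WT, 284.4 ± 18.7 in HET and 255.0 ± 10.4 in KO. Its KO columns did not overlap the WT columns (log2 fold change -0.23 ± 0.10, adjusted p = 0.224, edgeR). Of all genes tested, 3.37% had KO and WT columns without overlap. The integrin gene Itgb1 (-0.09 ± 0.09) and the fibronectin gene Fn1 (0.05 ± 0.19) had adjusted p-values of 0.616 and 0.905.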

How the data were processed

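RNA-Seq of 24 skin libraries was analysed (8 per genotype). Per the labels, RNA was isolated from frozen skin, poly(A) RNA was enriched and directional libraries were made. The authors deposited raw counts per gene symbol. The submitters' processing notes list STAR and HTSeq, with no version, and the human build hg19. Mouse genes cannot come from a human build, so the build was treated as unknown and coordinates come only from RefSeq windows. The use of strand in counting is not given in the sources used here.

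Libraries sharing a title number and genotype were summed, and columns were numbered 1 to 5 by that number. Title formats define series 1 (9 libraries) and series 2 (15 libraries). edgeR 4.0.16 (R 4.3.3) filtered genes with filterByExpr, computed TMM factors and ran its quasi-likelihood test on the 3 genotypes in 1 fit, with Benjamini-Hochberg adjustment over 17094 genes. Calls used the study's limits, an adjusted p of 0.1 and an absolute log2 fold change of 1. limma 3.58.1 (voom) and DESeq2 1.42.0 were alternatives. On simulated counts for KO versus WT, edgeR recovered 200 of 200 genes changed 4-fold, with 7 false calls over 16905 genes. The changed genes were drawn above a mean count that Tslp, Il13ra2, Ccl17 and Ccl22 did not reach. Smaller changes were not simulated, so this does not give the power for the 9 genes. P-values set differences between genotypes against the spread between columns, which no label ties to separate animals. The 9 genes and the lists were chosen with earlier results of these data known. Named from each list were called genes, or else up to 4 with the largest mean CPM, and for each tested gene the 3 most correlated of 15059 genes (log2(CPM + 0.5), Pearson's r). Retnla and Retnlg were not analysed here.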

Additional observations from a re-analysis of the deposited data

Results flagged for a closer look

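A column was marked where its gap to the nearest of the other 4 columns of its genotype, divided by the range of the 5, passed Dixon's 95% limit. This was so in 18 of 123 groups of values, where about 6.15 would be marked if the values were independent and normally distributed. The groups share columns, and counts as low as those of Ccl17 and Ccl22 are not normally distributed. The excess over 6.15 is therefore not a test.

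Il13ra2 was marked in KO replicate 4 (gap 0.921 of the range, 2.57 CPM against 0.333 to 0.511 in the other KO columns) and in HET replicate 1 (0.778). Ccl22 was marked in KO replicate 4 (0.821, 8 counts) and in WT replicate 3 and HET replicate 2 (1.0 each), the only column with counts in its genotype. Ccl17 was marked in KO replicate 5 (0.73, 4 counts). Il13ra1 was marked in WT replicate 5 (0.798, 114.6 CPM).

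Among the other genes, WT replicate 4 was marked for Jak1 (0.809), Stat6 (0.73), Ch25h (0.751) and Lox (0.886). Crlf2 was marked in WT replicate 5 (0.777) and Mrc1 in HET replicate 1 (0.82). Summed markers were marked for keratinocytes in KO replicate 2 (0.715), macrophages in WT replicate 5 (0.724), eosinophils in KO replicate 3 (0.711), T cells and innate lymphoid cells in KO replicate 2 (0.77) and skeletal muscle in HET replicate 1 (0.717).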

How the results depend on the processing

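The counts of called genes (0 of the 9 in each comparison and 0 of the pathway genes in KO versus WT) stayed at 0 under each of the 28 alternatives, including DESeq2, limma-voom, RLE factors, other count filters, an adjusted p limit of 0.05, no fold limit, each series alone, each of the 15 columns left out, and WT replicate 2 as separate columns, which was chosen after seeing the data. The adjusted p limit of 0.05 and the lack of a fold limit reused the main fit. No adjusted p-value of these genes was at or below 0.1 there, so both could only give 0. The other fits (edgeR, DESeq2 or limma-voom) kept the fold limit, so their 0 calls do not mean that no adjusted p passed. In KO versus WT the lowest adjusted p over these fits was 0.0696 for Il31ra, 0.0826 for Jak1, 0.0952 for Il33 and 0.0986 for Ch25h. Of the 26 other fits, Tslp entered 24 and Il13ra2 entered 22. Ccl17 and Ccl22 did not pass the main count filter and could not be called there. Single fold changes turned their sign as follows, and the causes were not tested. With series 1 alone, KO versus WT gave 0.45 for Tslp, -0.15 for Il4ra, -0.07 for Il2rg and -0.19 for Fn1, KO versus HET gave -0.04 for Il4ra and 0.04 for Ccl11, and HET versus WT gave -0.11 for Postn. With series 2 alone, Il4ra in HET versus WT was 0.06 and Il1rl1 in KO versus WT 0.04. With the macrophage score as a covariate, Il4ra in HET versus WT was 0.01. With the fibroblast score, KO versus WT gave 0.12 for Postn, 0.12 for Il1rl1 and 0.02 for Vcam1, and Ccl11 in KO versus HET was 0.0, where DESeq2, RLE factors and no filter gave 0.01. Without a change of sign, the fibroblast score lowered Il13ra2 from 1.30 to 0.54 in KO versus WT and from 1.01 to 0.31 in KO versus HET. Leaving out 1 column at a time, KO versus WT ranged from -0.01 to 0.20 for Il4ra, -0.20 to 0.07 for Postn, -0.18 to 0.11 for Il1rl1, -0.09 to 0.28 for Ccr4 and -0.04 to 0.21 for Fn1. HET versus WT ranged from -0.08 to 0.01 for Il4ra and -0.01 to 0.09 for Il13ra1, and KO versus HET from -0.10 to 0.07 for Ccl11. No paired analysis was possible because no title number occurs in more than 1 genotype. Depth limits Tslp, Il13ra2, Ccl17 and Ccl22, which had 188, 190, 26 and 19 counts in all.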
